A study of Chlamydomonas reinhardtii with 4 samples.

Results

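The nuclear genes for the gamma and delta subunits of the chloroplast ATP synthase of the green alga Chlamydomonas reinhardtii were represented by 4 of the 2880 clones on the spotted cDNA slides. ATPC, the gamma gene (locus tag CHLRE_06g259900v5), had 3 clones, here called a, b and c at print positions 644, 2007 and 2429. ATPD, the delta gene (CHLRE_11g467569v5), had 1 clone at position 53. The clones were taken by their locus tags in the platform annotation, which gives no gene names or products, and the names ATPC and ATPD are those in common use for these tags. The genes were selected on treatment ratios from these same slides, in which the delta clone had one sign on every slide and the gamma clones had means near 0. These ratios are therefore given as a description, with no test of their own.

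The chloroplast ATP synthase uses the proton gradient across the thylakoid membrane to make ATP. Its gamma subunit is the central shaft that turns inside the catalytic head, and in chloroplasts it carries a cysteine pair whose reduction by thioredoxin favours the active enzyme in light. The delta subunit sits on top of the head and ties it to the outer stalk that keeps it from turning. Both proteins are made in the cytosol and imported, whereas several of their partners are encoded in the chloroplast.

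Total RNA came from 100 mL cultures of the laboratory wild-type strain 4A+, grown photoautotrophically in high salt medium at 50 µmol photons per m2 per s. Treated cultures were given 2 µM rose bengal, a photosensitiser that makes singlet oxygen in light, and control cultures were given the same volume of water. The series title and a label of slide 4 call the rose bengal cultures pretreated, where the other labels read treated. Both are taken here as the same treatment. RNA was collected 2 h later, and the stated purpose was to find genes that singlet oxygen may regulate. Each of 2 biological replicates was hybridised on 2 slides, with the dyes switched between the slides of a pair: the treated RNA was labelled with Cy5 for slides 1 and 3, and with Cy3 for the other two. The ratios are centred on each slide, so they show the balance of a transcript between the cultures relative to the other clones. A change shared by all transcripts is not seen in them. With total RNA a change in cell number cannot be told apart from a change in RNA per cell.

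The deposited value of a spot is a log ratio of the dyes, read here as log2, with the log base and the dye order not given in the sources used here. The values of slides 2 and 4 were turned in sign, so that under a Cy5 over Cy3 reading a negative turned value means less transcript after rose bengal, and under the opposite reading more. Among the 2597 clones measured on every slide, the deposited values of slides 1 and 2 correlated with r = -0.39 and those of slides 3 and 4 with r = 0.03. These correlations across clones do not settle whether the ratio keeps one dye order throughout. Each result is therefore also given as deposited, which would be the treatment ratio if the authors had already turned the columns. Between 81.4% and 92.4% of the 11520 spots of a slide had a value. For the 4 clones, 60 of 64 spot readings had one, and all 4 missing readings were of gamma clone a.

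The delta clone read below 0 on all 4 slides after turning, while the 3 gamma clones averaged close to 0. The delta values were -0.34 on slide 1, -0.39 on slide 2, -0.17 on slide 3 and -0.19 on slide 4. Both slides of replicate 1 were lower than both slides of replicate 2. Its mean was -0.27 ± 0.13 (SD, n = 2 biological replicates), a 1.21-fold difference if the values are log2. Replicate 1 averaged -0.36, which is 1.29-fold, and replicate 2 averaged -0.18, which is 1.13-fold. The replicates thus had the same sign and differed in size.

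**Figure D1:**
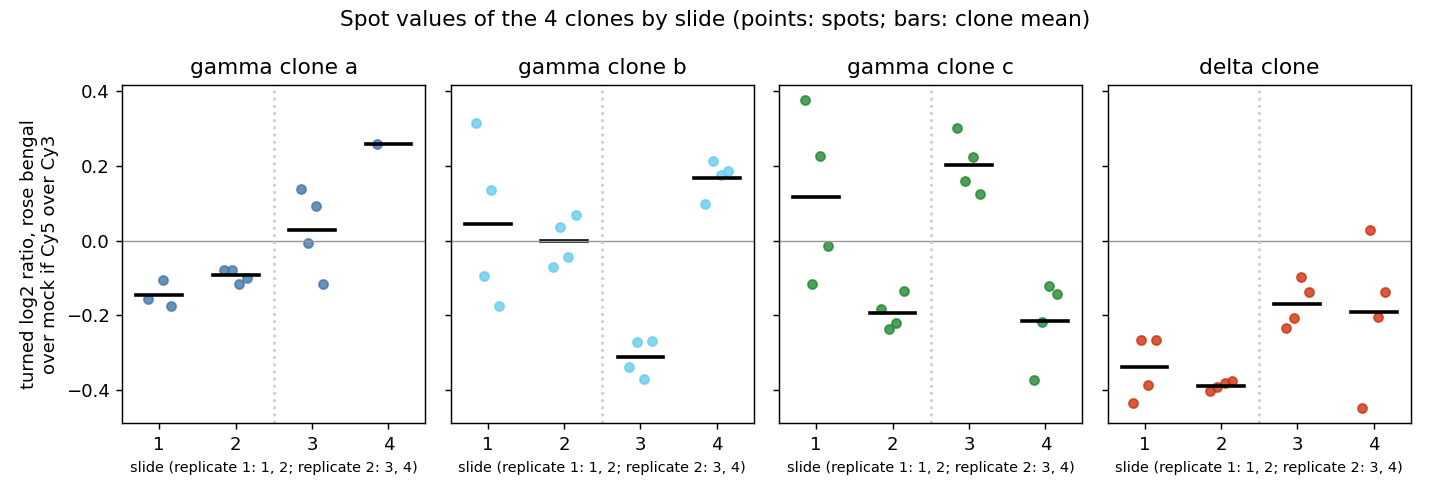
Turned log2 ratios of every spot of the 3 gamma clones and the delta clone on slides 1 to 4 (points, up to 4 spots a slide), with the mean of the spots as a bar and a dotted line between the biological replicates. For the delta clone 15 of 16 spots lie below 0, and the gamma clones lie on both sides of it.

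Of the 16 single spot readings of the delta clone, 15 were below 0, and all ran from -0.45 to 0.03. The exception was a spot on slide 4. Spots agreed most closely on slide 2, where the 4 readings ran from -0.40 to -0.37 (SD 0.013). They were widest on slide 4, from -0.45 to 0.03 (SD 0.197). Over the whole print, the spots of one clone had a median SD of 0.0433 on slide 2 and 0.109 on slide 4. The delta reading on slide 4 was therefore less precise than that of a typical clone on this slide, and the one on slide 2 more precise.

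Gamma clone a, which stands for the rotor shaft gene, read -0.15 on slide 1, -0.09 on slide 2, 0.03 on slide 3 and 0.26 on slide 4. Its value on slide 4 rests on 1 spot. The replicates had opposite signs, -0.12 in replicate 1 and 0.14 in replicate 2, and their mean was 0.01 ± 0.19 (SD, n = 2). Its mean near 0 thus stands for slide values on both sides of 0.

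Gamma clone b read 0.05 on slide 1, -0.002 on slide 2, -0.31 on slide 3 and 0.17 on slide 4, a mean of -0.03 ± 0.07 (SD, n = 2). Its slides of replicate 2 lay 0.48 apart after turning, while those of replicate 1 lay 0.05 apart. Gamma clone c read 0.12, -0.19, 0.20 and -0.21 on slides 1 to 4, a mean of -0.02 ± 0.02 (SD, n = 2). The sign of clone c alternated with the dye order on every slide. This small SD arises because the turned values of a dye pair cancel, and it leaves out a gap of 0.31 between the slides of replicate 1 and of 0.42 between those of replicate 2.

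The mean of the 3 gamma clones was 0.01 on slide 1, -0.10 on slide 2, -0.03 on slide 3 and 0.07 on slide 4, and -0.01 ± 0.05 over the replicates (SD, n = 2). The 3 clones of this gene did not read alike on a slide. The SD between them was 0.136, 0.096, 0.261 and 0.251 on slides 1 to 4. On slides 1 and 2 it was narrower than the median-based SD of all clones on the print, which was 0.174 and 0.136. On slides 3 and 4 it was wider, against 0.171 and 0.16 for all clones. The value of slide 4 includes clone a, which has 1 spot there. Over the 4 slides, the root mean square difference was 0.20 between clones a and b, 0.29 between a and c and 0.34 between b and c. For all 5253 pairs of annotated clones, whatever their gene, the median was 0.24 and the quartiles were 0.17 and 0.33. The labels state that the spotted fragments come from the 3′ ends of cDNAs, but the stretch of the gamma transcript in each clone was not analysed here.

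On slide 1, clones b and c were both higher in grids 1 and 3 than in grids 2 and 4. The spots of clone b read 0.32 and 0.14 in grids 1 and 3, and -0.10 and -0.18 in grids 2 and 4, and those of clone c read 0.38 and 0.23 in grids 1 and 3, and -0.12 and -0.02 in grids 2 and 4. The delta clone was split along the same grids in the other direction, at -0.435 and -0.385 in grids 1 and 3, and -0.265 in both grids 2 and 4. The medians of the 4 grids of slide 1 lay between -0.01 and 0, so the grids as a whole did not show these splits. Such splits were not confined to slide 1. On slide 3 clones a and c were higher in grids 1 and 3 than in grids 2 and 4, and clone b was lower there. On slide 4 the delta clone was lower in grids 1 and 3 after turning, and its spot above 0 was in grid 2. Not every clone was split in this way on every slide. The part of these splits in the clone values was not tested.

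The delta clone was lower than the gamma mean on every slide after turning. The difference, delta minus gamma, was -0.34 on slide 1, -0.29 on slide 2, -0.14 on slide 3 and -0.26 on slide 4. It was -0.32 in replicate 1 and -0.20 in replicate 2, and its mean was -0.26 ± 0.08 (SD, n = 2). Centring of a slide cancels in this difference. Both genes were chosen with these values known, so its sign is no independent evidence. Without gamma clone a, b or c the mean difference was -0.25, -0.27 and -0.26.

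In limma's test over all 2597 clones, 21 (0.809%) passed for treatment at an adjusted p of 0.05, and 0 of the 4 ATP synthase clones were among them. The means of the clones that passed had sizes of 0.374 to 2.78 on the log2 scale, all larger than that of the delta clone. By size the delta mean ranked 112th, so most clones with larger means did not pass either. The delta clone had the 67th most negative mean of the 2597 and the 5th most negative of the 103 tested clones with a single gene named. The gamma clones ranked 1404th, 871st and 901st from the negative end, in the order a, b and c, and the median of all treatment means was 0.005. In the alternative in which slides were scaled to equal spread, 91 clones passed and the delta clone was one of them, at -0.28. It did not pass in the other 13 alternatives run for this test. The delta clone was chosen on these same ratios, so whether it passes is no evidence about it.

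A single sign on all 4 turned slides was seen for 1 of the 4 clones, the delta clone. The genes were selected with this known, so the count is no evidence about them. Over all clones 13.7% had one sign on all slides, and 7.16% were negative on all 4.

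As deposited, without turning, the delta clone changed sign with each dye switch. Its deposited values were -0.32 on slide 1, 0.39 on slide 2, -0.16 on slide 3 and 0.20 on slide 4. Gamma clone c instead was above 0 on every slide as deposited, at 0.13, 0.20, 0.21 and 0.23, and 28% of all clones had one sign on all 4 slides in this reading after centring. Gamma clones a and b followed neither pattern throughout: clone a read -0.13, 0.09, 0.03 and -0.25, and clone b read 0.06, 0.003, -0.30 and -0.16.

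**Figure D2:**
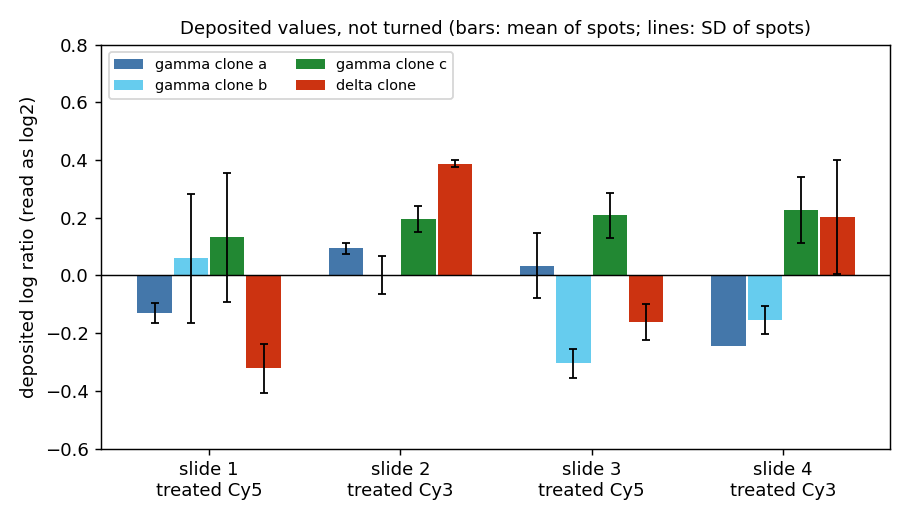
Deposited log ratios (read as log2, not turned) of the 4 clones on slides 1 to 4, with the dye of the treated RNA below each slide, bars for the mean of the spots and lines for the SD of the spots (none for clone a on slide 4, which has 1 spot). The delta bars point down on slides 1 and 3 and up on slides 2 and 4, and the bars of gamma clone c point up on all 4.

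The mean of the slides without turning is called the dye contrast here. The delta clone was chosen with its one sign on all 4 turned slides known. That sign alone makes its dye contrast smaller in size than its treatment contrast. The delta clone had a dye contrast of 0.02 ± 0.01, at 0.03 in replicate 1 and 0.01 in replicate 2 (SD, n = 2). Gamma clone c had the largest of the 4, 0.18 ± 0.04, at 0.16 and 0.21. Clone a was at -0.07 ± 0.06 and clone b at -0.11 ± 0.19 (SD, n = 2 each), so clones of the same gene had dye contrasts of both signs. For clone b this came from replicate 2, at -0.24, against 0.02 in replicate 1.

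None of the 4 clones passed limma's test for dye over all clones, in which 0 of 2597 (0%) passed and 568 had an unadjusted p under 0.05. The adjusted p was 0.133 for clone c, whose unadjusted p was 0.0116. It was 0.477 for clone a, 0.435 for clone b and 0.862 for the delta clone in the same limma fit. The 4 clones were chosen with their values on these slides known, so these p-values are no independent evidence about them. By size of dye contrast clone c ranked 289th of 2597 and the delta clone 2235th. If the authors had turned the columns before deposit, these would be the treatment values: 0.02 for delta, and -0.07, -0.11 and 0.18 for the gamma clones.

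**Figure D3:**
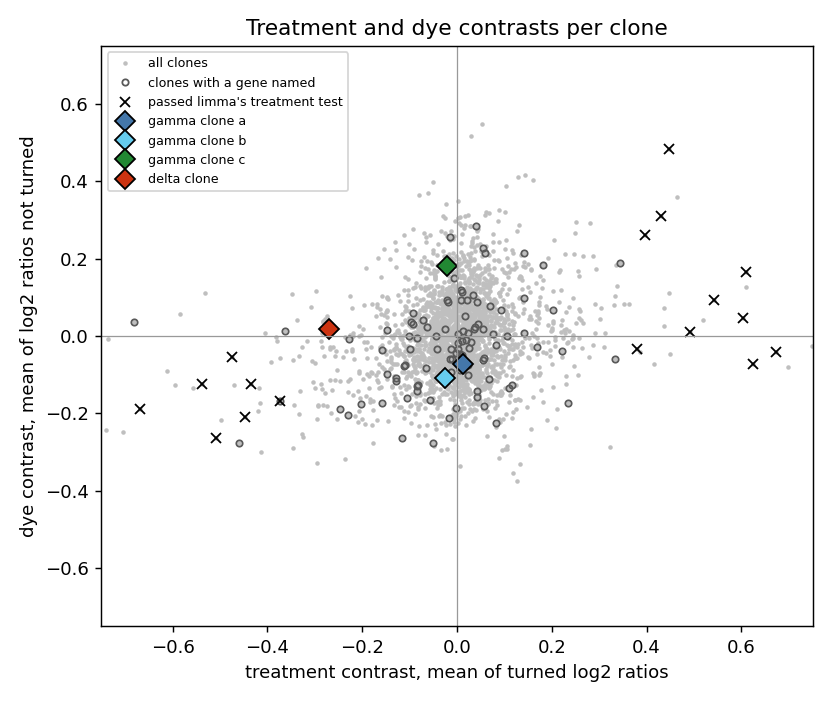
Treatment contrast (horizontal, mean of turned log2 ratios) against dye contrast (vertical, mean of log2 ratios not turned) for the clones tested, with the 4 ATP synthase clones as diamonds and clones that passed limma's treatment test as crosses. The delta clone lies at -0.27 and 0.02, the gamma clones lie near 0 on the horizontal axis and from -0.11 to 0.18 on the vertical, and 6 clones fall outside the plotted range.

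The slides of a dye pair carry the same RNA extracts, so their turned values differ by dye, slide and spot measurement and not by culture. For the delta clone the gap was 0.05 in replicate 1 and 0.02 in replicate 2. The median gap over all clones was 0.15 in replicate 1 and 0.18 in replicate 2. Gamma clone a had gaps of 0.05 and 0.23, clone b of 0.05 and 0.48, and clone c of 0.31 and 0.42. All 3 gamma clones were above the median in replicate 2, and the delta clone was below it in both replicates. By its definition this gap is 2 times the size of a clone's dye contrast in that replicate. It therefore restates the dye contrast and is no separate result, and the delta clone was chosen with its slide values known.

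Genes for comparison were taken from lists of locus tags drawn up from general knowledge of this genome, since the annotation used here gives no products. The tags are therefore printed without gene names. Of 6 tags listed for other ATP synthase subunits, chloroplast and mitochondrial together, 2 were on the slides, and 0 passed limma's treatment test in either direction, where 0.462% of all clones passed with a positive and 0.347% with a negative mean. CHLRE_17g698000v5 read 0.03, 0.001, 0.02 and -0.003 on slides 1 to 4, with a mean of 0.01 ± 0.01 (SD, n = 2). CHLRE_02g116750v5 read -0.08, 0.07, 0.08 and 0.16, with a mean of 0.06 ± 0.09 (SD, n = 2). Both means were above 0 and smaller in size than the delta mean. The annotation does not state whether these 2 belong to the chloroplast or the mitochondrial enzyme. They therefore do not show how other subunits of the chloroplast enzyme read.

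Of 12 tags listed for photosynthetic electron transport and the photosystems, 6 were on the slides and 0 passed in either direction. Their median treatment mean was -0.11, with 4 of 6 below 0, against a median of 0.005 and 47.4% below 0 over all clones. The largest was CHLRE_03g182551v5, at 0.23 ± 0.14, which read -0.08, 0.34, 0.20 and 0.47 on slides 1 to 4. CHLRE_08g372450v5 had a mean of -0.15 ± 0.15 and CHLRE_09g412100v5 one of -0.13 ± 0.01 (SD, n = 2 each). All 6 had a dye contrast below 0, from -0.26 to -0.10, against 51.8% of all clones, while the delta clone was at 0.02. None of the 6 kept one sign on all 4 turned slides. Further genes of this kind could not be searched for by product, so the 6 may not be all of those on the slides. Of 4 tags for carbon fixation 1 was on the slides, CHLRE_12g554800v5, at 0.14 ± 0.10 (SD, n = 2), and it did not pass.

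**Figure D4:**
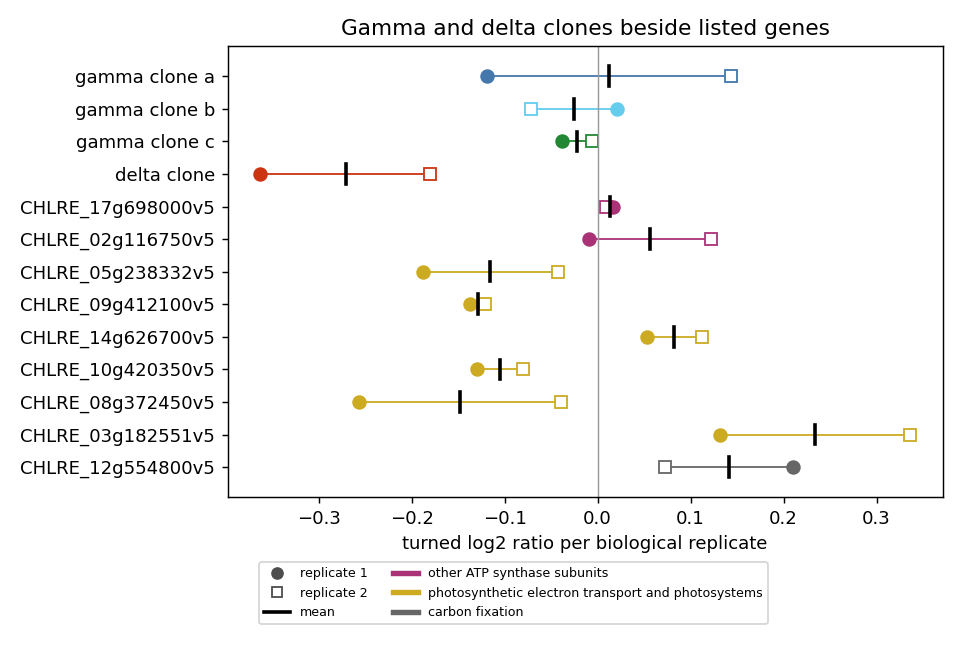
Turned log2 ratios of biological replicate 1 (filled circles) and replicate 2 (open squares) with their mean (black bar) for the 4 ATP synthase clones and the 9 listed genes found on the slides. The delta clone has the most negative mean of the 13, -0.27, and CHLRE_03g182551v5 the most positive, 0.23.

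The annotated clones nearest to the delta clone, by the root mean square difference of the turned values over 4 slides, were those of CHLRE_07g346050v5 (0.12), CHLRE_13g583550v5 (0.15) and CHLRE_10g435800v5 (0.16). CHLRE_07g346050v5 read -0.45, -0.25, -0.02 and -0.20 on slides 1 to 4, and CHLRE_13g583550v5 read -0.53, -0.34, -0.18 and -0.42. CHLRE_10g435800v5 read -0.35, -0.21, 0.09 and -0.12, so it was above 0 on slide 3. The first of the 3 was closest on slide 4 and farthest on slide 3. Nearest to the mean of the gamma clones were CHLRE_03g204650v5 (0.05), CHLRE_08g379350v5 (0.05) and CHLRE_02g089950v5 (0.06), with treatment means of 0.02, -0.01 and 0.04. These 3 lie near 0, as does much of the print, where the median-based SD of the treatment means was 0.0699.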

How the data were processed

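The authors deposited 1 log ratio of the dyes per spot and slide, read here as log2 values. Scanner, background correction, normalization, log base and dye order are not given in the sources used here, and column medians between -0.01 and 4e-04 show that the deposited values had been centred. Spots of a clone (4 grids) were averaged per slide, and the median clone of every slide was set to 0. A clone needed at least 1 spot per slide, which left 2597 of 2880 clones. Slides 2 and 4 were turned in sign, and the slides of a dye pair, which carry the same extracts, were averaged to n = 2. Replicates are separate biological samples per the labels. For treatment and dye, limma 3.58.1 under R 4.3.3 tested whether the mean was 0 in a two-sided moderated test (lmFit, eBayes). The p-values were adjusted by Benjamini-Hochberg over all clones. The fit was checked on simulated data drawn with the error model that limma assumes. That check does not show how well the model holds for these slides. The number of arrays limits the precision. Genes were named through the platform annotation, where 105 clones had 1 gene and 1 had several, and the locus tags of both genes are in RefSeq assembly v5.5. No coordinates or sequences are given. Members, lists and tests were chosen with earlier results of these data known. Named are the 4 clones, the 3 annotated clones nearest to each gene, and up to 3 genes per list.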

Additional observations from a re-analysis of the deposited data

How the results depend on the processing

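The delta mean of -0.27 and the delta minus gamma difference of -0.26 stayed below 0 in 14 of 15 and 17 of 18 alternatives. With any 1 slide left out they ran from -0.28 to -0.26 and from -0.29 to -0.23. Neither the counts of alternatives nor these ranges test the sign, since all 4 slides had it. Another log base, 1 replicate alone or 1 slide left out cannot change it. With the columns read as already turned the delta mean and the difference were 0.018 and 0.017. Read as decimal logarithms they would be -0.90 and -0.86 on the log2 scale, a 1.87-fold and a 1.82-fold difference, and read as natural logarithms the difference would be -0.37. Against 21 clones called for treatment by limma, 12 positive and 9 negative, there were 47 when spots were combined by their median, 1 when every slide needed 3 spots (which leaves out gamma clone a), 91 with slides scaled to equal spread (34 positive, 57 negative), 2 with a running median along the print, 0 with the columns read as already turned (568 with an unadjusted p under 0.05), 45 with the 4 slides and a dye term, 73 with a fixed biological replicate block added, and 10 with robust moderation. Without slide 1, 2, 3 or 4 there were 5, 83, 40 and 21. Against 0 for dye, there were 29 with the median of spots and 21 with the columns read as already turned. Without slide 1, 2, 3 or 4 the dye counts were 0, 2, 93 and 0, and they were 0 in the other alternatives. With 1 slide of a pair left out, treatment and dye no longer separate in that replicate. The cause of the other shifts was not tested. The planned random block could not be fitted, as it gave no correlation estimate. The fixed block, the centring of grids and the gamma clones left out in turn were chosen after seeing the data. The gamma clone means changed sign in some alternatives and ran from -0.145 to 0.182. Depth is limited by missing spots, most of all for gamma clone a on slide 4.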
